A study of Homo sapiens with 18 samples.

Results

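The baseline transcriptome described here is that of vehicle-treated xenograft tumours, given as levels of human genes in RNA of tumours that grew in mice. How human and mouse reads were sorted is not given in the sources used here. Members were chosen by title, as the libraries of the vehicle group, and number 6 of the 18 tumours of the study. The tumours arose from HCT116, a human colon cancer cell line, with PTDSS2 knocked out. Each of the 6 came from the arm given vehicle by mouth, where the solution was 0.5% methylcellulose, and was collected 24 hours later. The remaining tumours, 6 at 10 mg/kg and 6 at 30 mg/kg, carried the same knockout and received the compound DS55980254 in the same solution. All groups shared the knockout, so no tumour shows the parental line. The labels do not say whether the knockout was a single clone, which mouse strain was the host, or whether each tumour came from its own animal, and p-values therefore measure only the spread between these tumours, which may be technical. Replicates 1 to 6 of the vehicle group are called tumours 1 to 6.

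Phosphatidylserine is a phospholipid of the inner leaflet of the plasma membrane. Mammalian cells make it by base exchange in the endoplasmic reticulum, where PTDSS1 replaces the choline of phosphatidylcholine with serine and PTDSS2 does the same with the ethanolamine of phosphatidylethanolamine. The mitochondrial enzyme PISD turns phosphatidylserine into phosphatidylethanolamine. Cells that lack one synthase rely on the other. HCT116 is a poorly differentiated, mismatch repair deficient line that keeps epithelial keratins and adhesion genes.

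The 6 libraries held 4032417 to 4900612 expected counts (estimated reads per gene, median 4386726), and 17187 to 19045 genes had a count. Levels are given in TPM (the share of transcripts, scaled for transcript length), and spread between tumours in CPM (counts scaled to library size, here with TMM factors), because CPM is not tied to the few short RNAs that took much of the TPM. Small RNA genes, those of a small RNA class by name (nucleolar, spliceosomal, micro and Y RNAs, RMRP, RPPH1 and the like) or with transcripts under 300 bases, took 19.2% to 20.7% of the TPM but 1.05% to 1.12% of the counts. Correlations of log2 levels between pairs of vehicle tumours ran from 0.956 to 0.982. Tumour 3 stood apart, with correlations of 0.956 to 0.972 against 0.972 to 0.982 among the other 5. On the first principal component, which held 39.0% of the variance, tumour 3 had a loading of 0.80, tumour 4 of -0.47 and tumour 5 of -0.37. Across genes, log2 differences from the group mean rose with GC content in tumour 3, by 0.07 for each 10 points of GC, and fell by 0.09 in tumour 4. Beside most results that rest on tumour 3 stand the values of the other 5 tumours or the spread without it.

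PTDSS1, the synthase that remained intact, had 52.99, 62.12 and 67.16 TPM in the lowest, median and highest vehicle tumour, with a mean of 61.1 ± 5.06 (SD, n = 6). Its biological coefficient of variation (the SD between tumours over the mean, after counting error is subtracted) was 0.034, well under the median of 0.0920 over 10512 genes. PTDSS1 was thus among the steadier genes of these tumours. PTDSS2 had 4.25, 7.12 and 10.1 TPM in the lowest, median and highest tumour (mean 7.23 ± 1.85, SD, n = 6). Reads of the knocked-out gene were therefore present in all 6 tumours, at a level below that of PTDSS1 in each of them. The tables give 1 value per gene and do not show whether these reads span the edited site, so the PTDSS2 level is no check of the knockout. PISD, the decarboxylase, stood at 32.8 ± 4.37 TPM.

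The enzymes around phosphatidylserine were nearly all present. Of 11 genes for phosphatidylethanolamine and phosphatidylcholine synthesis, 10 were at or above 1 TPM, the level taken here as present, with a list median of 29.3 TPM. The highest were ETNK1 and CHKB, the kinases that start these routes from ethanolamine and choline, at 62.7 ± 15.2 and 48.6 ± 9.19 TPM. PCYT2, which makes CDP-ethanolamine, had 39.2 ± 2.60 TPM, and PCYT1A, its counterpart for choline, 35.0 ± 4.42 TPM. PCYT1B, the second choline form, was nearly absent at 0.045 TPM.

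All 13 measured genes for phosphatidate, inositol and mitochondrial phospholipids were present (median 29.2 TPM), led by the acyltransferases AGPAT2 and AGPAT1 at 65.8 ± 8.55 and 58.8 ± 7.65 TPM. Of 21 flippases, scramblases and lipid transfer proteins, which set where phosphatidylserine lies in the membrane, 17 were present, with a median of 15.6 TPM. PLSCR1, a scramblase family member induced by interferon, was highest at 85.6 ± 5.38 TPM. ATP11A, a plasma membrane flippase, had 64.0 ± 3.06 TPM and its chaperone TMEM30A 42.2 ± 3.15 TPM. ANO6, the calcium-activated scramblase, had 46.9 ± 3.88 TPM and XKR8, the scramblase cleaved by caspases, 12.4 ± 3.01 TPM. OSBPL8 and OSBPL5, which carry phosphatidylserine from the endoplasmic reticulum to the plasma membrane, had 45.9 ± 3.96 and 35.8 ± 2.44 TPM. TMEM30B was at 0.035 TPM and ATP10A was at 0 in all 6 tumours.

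Across the tables, 15280 of 25343 genes (60.3%) averaged at least 1 TPM in vehicle tumours, 10249 at least 10, 1417 at least 100 and 120 at least 1000, while 4116 were at 0 in all 6. The 50 most abundant genes other than small RNAs held 14.2% of the TPM, and 31 of them were ribosomal protein genes or pseudogenes of these. Among them RPL13AP5, a pseudogene with 6115 ± 172 TPM, shares reads with RPL13A, so its level is uncertain. The other 19 included the nuclear long noncoding RNA MALAT1 (6483 ± 482 TPM), the highest of the 50, and PTMA, the acidic nuclear protein prothymosin alpha (5786 ± 1319 TPM). Cytoskeletal and glycolytic genes followed, with the actin ACTG1 at 5028 ± 620 TPM and the glycolytic enzyme GAPDH at 4712 ± 509 TPM. Chaperones were represented by HSP90AB1 (3379 ± 276 TPM) and HSP90AA1 (2038 ± 137 TPM), and the simple epithelial keratins by KRT8 (3135 ± 204 TPM) and KRT19 (2149 ± 438 TPM). PTMA, ACTG1, HSP90AB1 and KRT8 had counts that were not whole numbers in at least 1 vehicle library. Reads may thus have been divided between these and other genes, and their levels are less certain. PTMA was highest in tumour 3, and its biological coefficient of variation went from 0.264 to 0.0923 without that tumour.

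**Figure D1:**
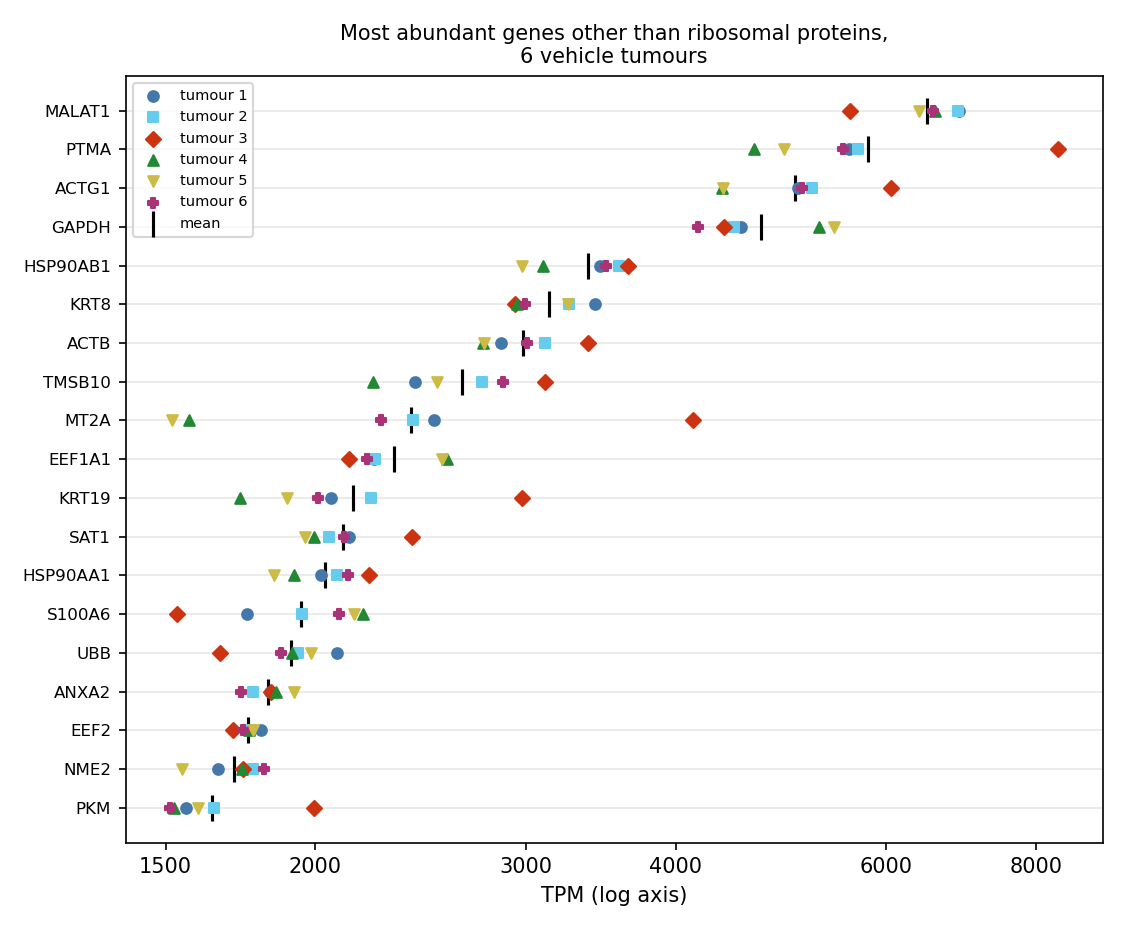
TPM (log axis) of the 19 most abundant genes that are neither ribosomal protein genes nor small RNAs, with 1 symbol per vehicle tumour and a bar at the mean. MT2A spreads from 1519 to 4134 TPM and PTMA from 4652 to 8346 TPM, each highest in tumour 3, while EEF2 stays between 1706 and 1802 TPM.

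Most of these levels were close between tumours. The median coefficient of variation of TPM over the 50 genes was 8.07%, the lowest was 1.85% for EEF2, the translation elongation factor, and the highest 39.5% for MT2A, a metal-binding metallothionein. EEF2 had 1706, 1762 and 1802 TPM in the lowest, median and highest tumour. MT2A had 1519 TPM in tumour 5, 1569 in tumour 4, 2268 in tumour 6, 2413 in tumour 2, 2513 in tumour 1 and 4134 in tumour 3. Thus the gene fell into a low pair, a middle group of 3 and a single high tumour. The 50th gene, PKM, a glycolytic kinase, had 1639 TPM and the 51st 1637 TPM, so the list ends inside a close run of values.

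None of the 50 most abundant genes differed from the dosed tumours at an adjusted p under 0.05 in edgeR's quasi-likelihood test, 0 at 10 mg/kg and 0 at 30 mg/kg. Over all 14074 genes tested the share called was 0.469% at 10 mg/kg and 0.618% at 30 mg/kg. At an unadjusted p under 0.05, 1 of the 50 passed at each dose by edgeR and 1 by DESeq2, where 9.5% and 7.9% of all genes passed by edgeR. DESeq2 likewise called 0 of the 50 after adjustment at either dose.

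In TPM, which divides by transcript length, small RNAs held the highest single values, although they took few of the counts. RMRP, the RNA of the RNase MRP ribonucleoprotein, had 49527, 51374 and 52971 TPM in the lowest, median and highest tumour (mean 51338 ± 1534). RPPH1, the RNA of RNase P, had 12834 ± 1368 TPM. SNORD10 and SNORD15B, box C/D small nucleolar RNAs, had 10374 ± 2892 and 6358 ± 1702 TPM. RMRP and RPPH1 were thus close between tumours, whereas the nucleolar RNAs varied more.

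The entries MIR663A and MIR3648-1 ranked between these, at 41582 ± 4538 and 17423 ± 6256 TPM. MIR3648-1 had 5376 TPM in tumour 3 against 17125 to 22983 TPM in the other 5 tumours, so a single low tumour set its spread. MIR663A had 37555 to 49157 TPM and was highest in that same tumour. Their mature RNAs are shown because these entries outrank every messenger RNA and because both are nearly all G and C (90.9% and 81.0%). Capitals mark the seed, bases 2 to 8, which differs between them. The sequences are those of RefSeq on GRCh38.p14, where the table holds miR-3648 under its second gene copy.
miR-663a: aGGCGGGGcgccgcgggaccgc
miR-3648: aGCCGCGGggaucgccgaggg
A library of total RNA fragments does not tell a mature microRNA from a longer RNA that holds the same letters, so these values are levels of the locus entry, not of the mature microRNA.

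Some markers of epithelium in general were high and markers of mature intestinal cells were low. Of 30 genes of colon and intestinal epithelium identity, 18 were present, with a list median of 4.59 TPM. This is near the background, where 60.3% of all genes were present and the median over all genes was 4.15 TPM. Of the 30, 3 were at 0 in all 6 tumours. The keratins KRT8, KRT19 and KRT18 (1525 ± 135 TPM) led, followed by the adhesion molecule EPCAM (416 ± 47.5 TPM), the claudins CLDN4 (140.0 ± 17.1 TPM) and CLDN7 (113 ± 26.4 TPM), and CDH1, or E-cadherin (73.4 ± 6.75 TPM). ESRP1 and ELF3, epithelial regulators of splicing and transcription, had 77.0 ± 9.60 and 76.5 ± 4.95 TPM.

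The intestinal transcription factor CDX2 was present at 10.6 ± 2.19 TPM. HNF4A, a further such factor, was at 0.998 ± 0.752 TPM and CDX1 was at 0 in every tumour. Structural and surface genes of mature enterocytes were scarce, with the brush border protein VIL1 at 0.258 TPM, the intestinal cadherin CDH17 at 0.213 TPM and CEACAM5 at 0.107 TPM. FABP1, the fatty acid carrier of enterocytes, and CEACAM6 were at 0 in all 6. Keratins and EPCAM, which mark epithelium in general, were thus high and CDX2 was present, while CDX1, HNF4A and these enterocyte genes were under 1 TPM. The label of a colon line was met in part by its markers.

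Genes of differentiated gut cells were close to undetected. Of 18 genes of secretory cells, only FCGBP, a goblet cell protein, passed 1 TPM (1.22 ± 0.236), and MUC2, the main goblet cell mucin, had 0.133 TPM. Of 13 genes of absorptive cells, only the carbonic anhydrase CA2 passed, at 11.8 ± 3.36 TPM. Genes of stem cells and Wnt targets were present in larger number, 14 of 20. CD44, a hyaluronan receptor, had 352 ± 39.6 TPM and the crypt transcription factor SOX9 265 ± 15.6 TPM. RNF43 and AXIN2, feedback inhibitors of Wnt signalling, had 71.0 ± 7.66 and 56.6 ± 10.1 TPM. The crypt base markers LGR5 and ASCL2 stood at 0.120 and 0.125 TPM, and the Wnt effector LEF1 at 0 in all 6 tumours. Of 10 genes of mesenchymal transition, 6 were present at low levels, the highest being fibronectin, FN1 (11.7 ± 1.51 TPM), and TWIST1 (10.4 ± 2.60 TPM). VIM, or vimentin, had 2.07 ± 0.925 TPM.

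Human markers of other cell types were mostly absent. The tumours grew in mice from a human line, so host cells would be mouse cells. Low human levels of these markers were thus largely set by the design. All 10 such lists had a median under 1 TPM, against 3 of 5 lineage lists and 26 of 26 pathway lists with a median of at least 1. In bulk samples fewer cells of a type and less RNA per cell cannot be told apart. Summed over a list, erythroid markers ran from 0.08 to 1.96 TPM between the 6 tumours and had 0 of 8 members present, with HBB and HBD at 0. Adipose markers summed to 0.50 to 2.72 TPM with 0 of 6 present, and FABP4 and CIDEC at 0. Endothelial markers summed to 4.28 to 14.01 TPM with 2 of 10 present, led by CLDN5 (3.48 ± 1.36 TPM), while PECAM1 had 0.157 TPM and EMCN was at 0. Leukocyte markers summed to 12.8 to 22.9 TPM with 2 of 12 present, CD68 and LYZ, while the pan-leukocyte gene PTPRC had 0.015 TPM.

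Fibroblast markers summed to 26.1 to 45.4 TPM, nearly all from COL1A1 at 29.3 ± 5.87 TPM, one of 3 of 12 present. Its partner chain COL1A2 had 0.0567 TPM, and DCN and POSTN were at 0. Single genes of other lists were high without the rest of their list. KRT5, a basal keratin, had 133 ± 41.7 TPM among keratinocyte markers, of which 3 of 7 were present, while TP63 had 0.0567 TPM and IVL was at 0. Among neuronal markers SYT1, a synaptic vesicle protein, had 54.1 ± 7.34 TPM with 3 of 7 present and SNAP25 at 0. SERPINA1, a protease inhibitor, had 13.9 ± 1.55 TPM as the only one of 8 hepatocyte markers present, with APOA1, APOC3 and TTR at 0. The highest muscle marker was DES at 3.07 TPM (3 of 8 present, MYH2 at 0) and the highest melanocyte marker PMEL at 5.67 TPM (2 of 6 present). How mouse reads were handled is not given in the sources used here, and mouse host cells were not measured.

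**Figure D2:**
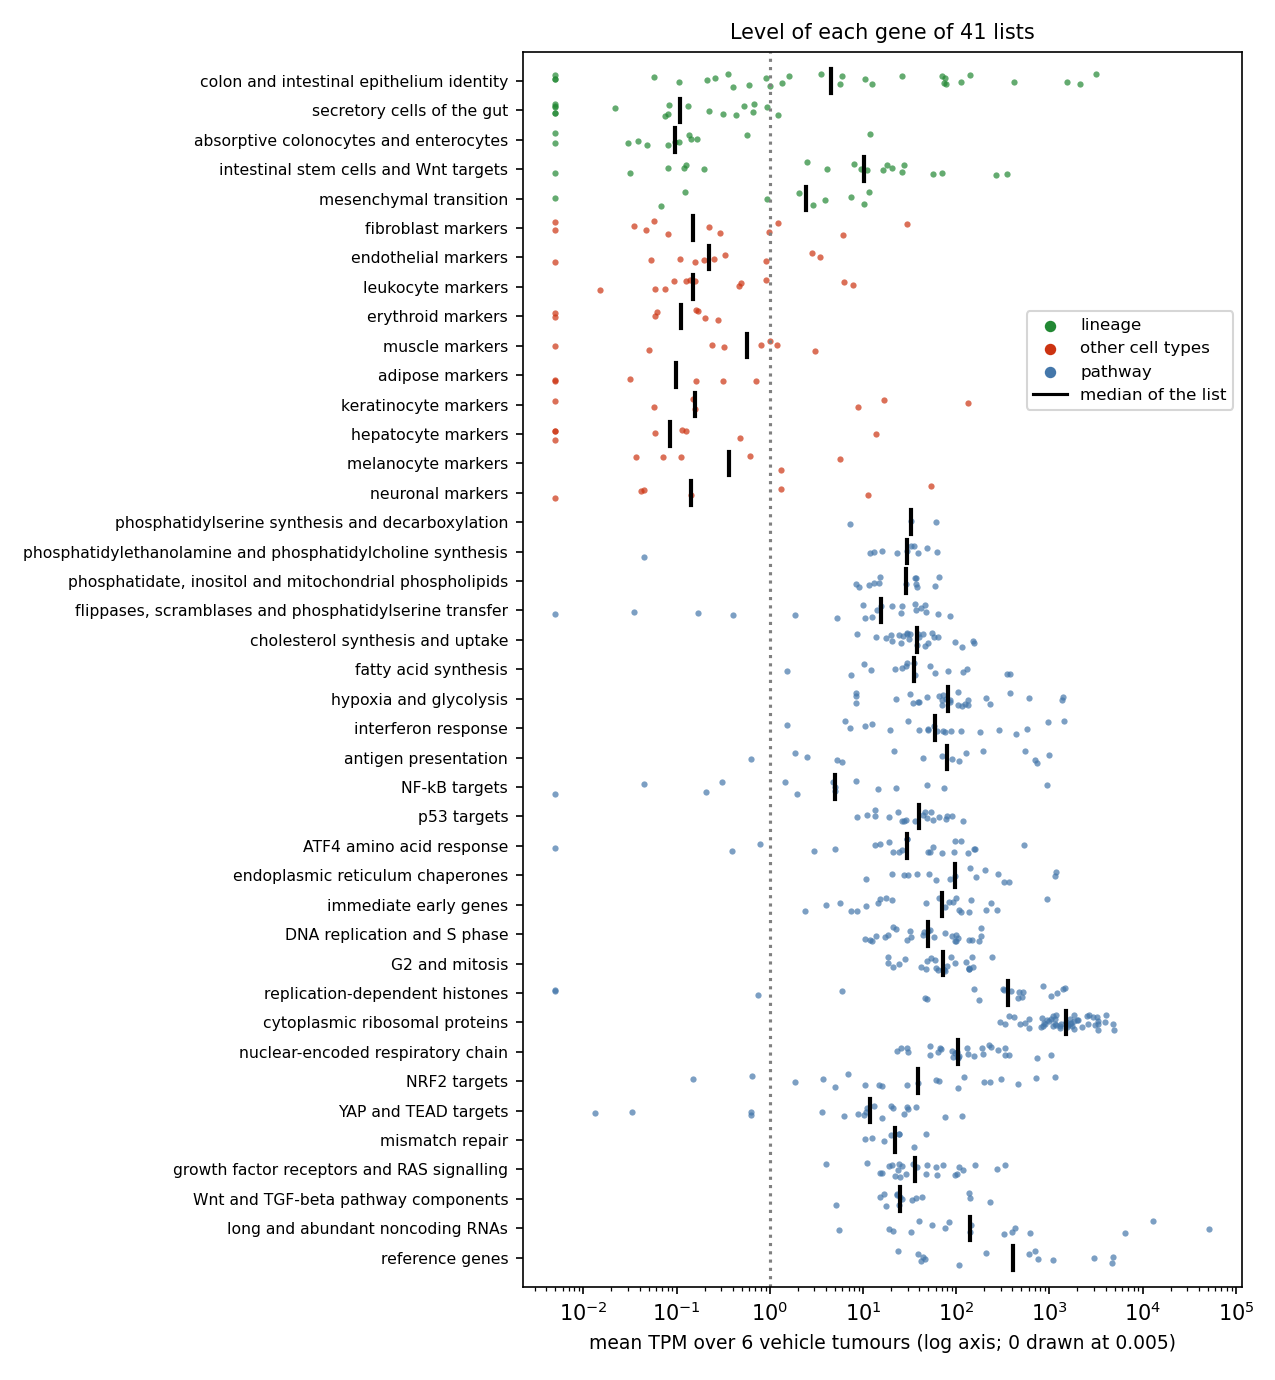
Mean TPM over the 6 vehicle tumours (log axis) of each gene of 41 lists, with a bar at the median of each list and genes at 0 drawn at the left edge. The 10 lists of other cell types lie to the left of the dotted line at 1 TPM by their medians, while all 26 pathway lists lie to its right.

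Genes of sterol and fatty acid synthesis were all present. All 25 genes of cholesterol synthesis and uptake were present, with a median of 38.1 TPM. FDPS and FDFT1, which make farnesyl diphosphate and squalene, led with 157 ± 14.1 and 152 ± 8.63 TPM. SREBF2, the transcription factor of the pathway, had 97.4 ± 3.88 TPM. All 17 fatty acid genes were present (median 35.5 TPM), led by the synthase FASN (382 ± 29.5 TPM) and the desaturase SCD (349 ± 42.7 TPM).

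Genes of DNA replication and of mitosis were all present, and most replication-dependent histones were. All 27 genes of DNA replication had at least 1 TPM (median 50.2), led by the helicase subunit MCM7 (184 ± 10.6 TPM) and the thymidylate synthase TYMS (184 ± 14.8 TPM). All 25 genes of G2 and mitosis were present (median 72.8 TPM), led by MKI67, the proliferation antigen, at 240 ± 27.6 TPM. Replication-dependent histones, whose messages lack a poly(A) tail, had a median of 357 TPM with 17 of 20 present. H1-4 was highest at 1486 ± 60.2 TPM, and H1-3 and H1-5 were at 0 in all 6 tumours. The 51 ribosomal protein genes had a median of 1496 TPM and 29 nuclear-encoded respiratory chain genes a median of 105 TPM.

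Growth factor signalling was represented by ligands, receptors and feedback targets, with all 26 genes present (median 36.1 TPM). The ligands AREG and EREG, which bind the epidermal growth factor receptor, had 274 ± 23.6 and 157 ± 21.1 TPM. Among receptors MET had 108 ± 10.5 TPM, EGFR 97.3 ± 9.43 TPM and ERBB2 71.8 ± 5.58 TPM. Of the feedback and target genes, PHLDA1 had 332 ± 10.7 TPM, the ERK phosphatase DUSP6 275 ± 17.2 TPM and the transcription factor ETV4 102 ± 8.05 TPM. The Wnt and TGF-beta components were all present, 15 of 15, with TCF7L2, a DNA-binding partner of beta-catenin, at 233 ± 23.8 TPM and CTNNB1, beta-catenin itself, at 142 ± 6.58 TPM. TGFBR2, a TGF-beta receptor, had 26.3 ± 1.39 TPM. All 8 mismatch repair genes had transcripts, from MLH3 at 10.6 ± 1.17 TPM to MSH6 at 47.9 ± 4.06 TPM.

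Interferon-responsive genes were present in vehicle tumours, 22 of 22 with a median of 59.8 TPM. IFI6 and ISG15 had 1418 ± 71.2 and 962 ± 99.3 TPM. The lowest members were MX1 and OAS2, an antiviral GTPase and a double-stranded RNA sensor, at 6.45 ± 1.34 and 1.51 ± 0.430 TPM. Class I antigen presentation was high, with HLA-C at 998 ± 62.2 TPM and B2M, its invariant chain, at 692 ± 47.8 TPM. The class II transactivator CIITA had 0.630 TPM. HLA genes are near-identical in sequence, and the division of reads between them is uncertain.

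Stress and damage lists were also filled. All 20 p53 targets were present (median 39.7 TPM), with the cell cycle inhibitor CDKN1A at 119 ± 19.7 TPM and MDM2, which degrades p53, at 79.3 ± 5.73 TPM. The ATF4 amino acid response had 21 of 24 genes present (median 29.5 TPM), with ATF4 itself at 533 ± 67.8 TPM and FGF21 at 0. All 17 endoplasmic reticulum chaperones and their partners were present (median 97.5 TPM), led by CALR at 1185 ± 86.0 TPM. NRF2 targets had 19 of 21 present, led by the ferritin chain FTH1 at 1144 ± 68.3 TPM. Among NF-kB targets, 11 of 15 were present and the median was 4.96 TPM, where the median over all genes was 4.15 TPM. IER3 stood far above the others at 945 ± 111 TPM, while IL6, TNF and CCL20, which encode secreted cytokines, had 0.207, 0.045 and 0 TPM.

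Spread between the 6 tumours was measured for the 10512 genes with a mean of at least 50 counts. The median biological coefficient of variation was 0.0920 and the 90th percentile 0.189. Only 145 genes exceeded 0.3 and 23 exceeded 0.5, while 1113 had an estimate of 0, that is, no spread beyond counting error. Without tumour 3 the median was 0.0748. For the same genes the median was 0.209 in the 10 mg/kg group, 0.120 there without its replicate 2, whose library held 433981 counts, and 0.132 in the 30 mg/kg group. The difference in spread between groups was not tested.

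The list with the widest score was hypoxia and glycolysis, targets of the hypoxia-inducible factors and enzymes of glycolysis. A score is the mean log2(CPM + 0.5) of the members with at least 50 counts, here 26. Relative to the mean of the 6 tumours, tumour 3 was at 0.32, tumours 4 and 5 at -0.01 and 0.00, and tumours 1, 6 and 2 at -0.09, -0.09 and -0.12. The SD was 0.16, and 0.05 without tumour 3, so 1 tumour set the width among the vehicle tumours. In dosed tumours the same score had an SD of 0.36 at 10 mg/kg, 0.40 there without replicate 2, and 0.42 at 30 mg/kg. This difference between groups was not tested. Of the 26 members, 21 were highest in tumour 3, where 26.4% of all genes with whole counts were highest in that tumour. Under library totals 21 members, and on the TPM scale 20, were highest in tumour 3.

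Among the members, ADM, which encodes the vasodilator adrenomedullin, had 64.6, 82.1 and 137 CPM in the lowest, median and highest tumour. NDRG1, a hypoxia-responsive gene, had 269, 315 and 534 CPM. SLC2A1, the glucose transporter, had 606, 637 and 1038 CPM. In each of the 3 genes the highest value was that of tumour 3 and the other 5 lay close together, up to 86.0, 349 and 667 CPM. Without tumour 3 the biological coefficients of variation of ADM, NDRG1 and SLC2A1 went from 0.283, 0.276 and 0.236 to 0.0978, 0.0931 and 0.0300. BNIP3, a mitophagy receptor, reached 108 CPM in tumour 3 against 52.4 to 79.1 in the others. DDIT4, an inhibitor of mTORC1, reached 163 CPM against 98.5 to 119, and HK2, a hexokinase, 202 CPM against 123 to 147. Exceptions were PDK1, P4HA1, BNIP3L, ERO1A and PGK1, which were not highest in tumour 3. All 28 genes of the list were present in TPM, from SLC2A3, a second glucose transporter, at 8.32 ± 2.19 TPM to the aldolase ALDOA at 1400 ± 165 TPM.

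**Figure D3:**
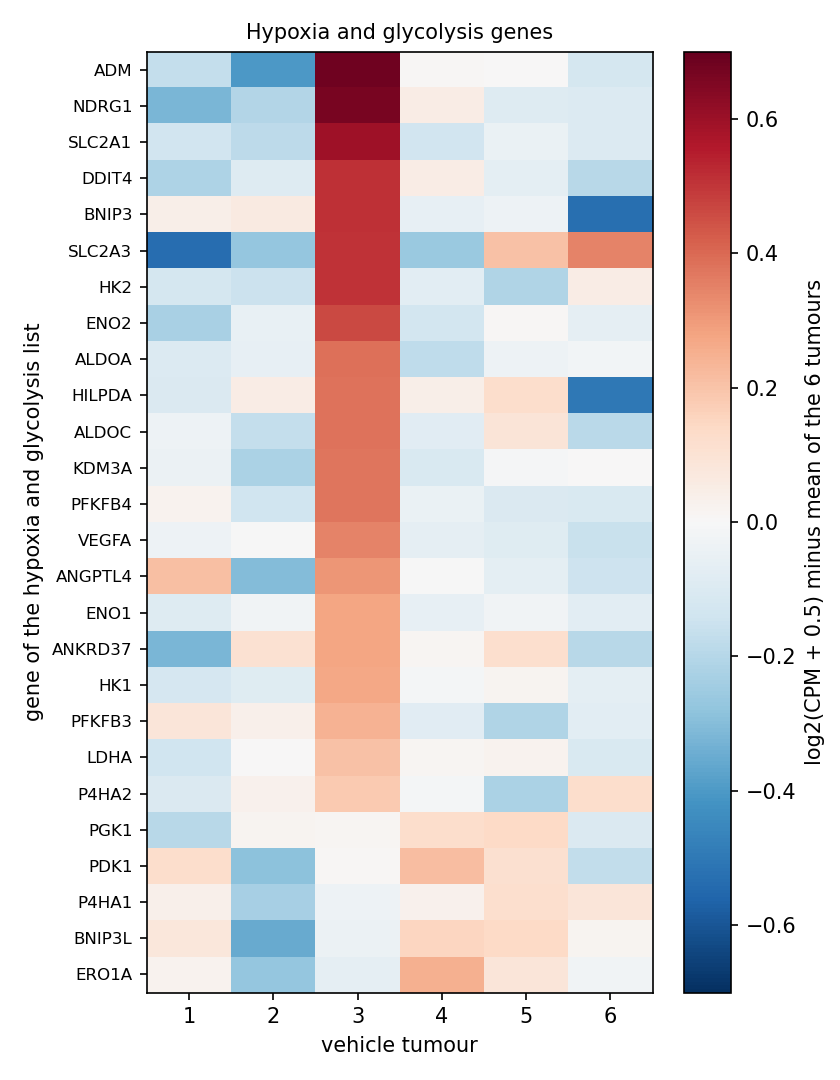
Difference of log2(CPM + 0.5) from the mean of the 6 vehicle tumours for the 26 genes of the hypoxia and glycolysis list with at least 50 counts, ordered by tumour 3. Red is above and blue below the mean, and 21 of 26 genes are highest in tumour 3.

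The windows around the starts of these genes were searched for ACGTG, the core bound by hypoxia-inducible factors, on both strands. RefSeq promoters (250 bases before to 50 after the start, GRCh38.p14) were matched for 23 of the 28 genes, and 13 of 23 (56.5%) held the core, against 21.6% of 27305 promoters. The list was made of known targets of these factors and of glycolytic enzymes, so a high share was set by the choice of genes and bears on no tumour. ERO1A, PGK1 and P4HA1, not highest in tumour 3, held the core as well. A match is a run of letters and not a measured site. BNIP3, DDIT4 and HK2 are shown as the 3 genes of widest spread with a match, chosen after their values were seen. Capitals mark the core in either direction, and the matches on the 2 strands overlap in BNIP3 only.
BNIP3, chr10:131981874-131982173, minus strand: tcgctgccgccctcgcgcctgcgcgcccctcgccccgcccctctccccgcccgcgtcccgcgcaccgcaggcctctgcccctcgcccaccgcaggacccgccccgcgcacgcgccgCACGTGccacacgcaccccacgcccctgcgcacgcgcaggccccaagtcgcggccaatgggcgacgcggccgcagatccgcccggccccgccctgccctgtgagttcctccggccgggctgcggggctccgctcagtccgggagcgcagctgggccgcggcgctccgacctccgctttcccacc
DDIT4, chr10:72273674-72273973, plus strand: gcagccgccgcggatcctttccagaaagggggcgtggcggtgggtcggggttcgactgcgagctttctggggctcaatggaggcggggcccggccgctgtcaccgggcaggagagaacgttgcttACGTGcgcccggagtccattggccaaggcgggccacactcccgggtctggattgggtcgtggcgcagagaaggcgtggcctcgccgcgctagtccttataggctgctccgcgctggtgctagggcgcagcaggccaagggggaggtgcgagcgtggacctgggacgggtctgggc
HK2, chr2:74833877-74834176, plus strand: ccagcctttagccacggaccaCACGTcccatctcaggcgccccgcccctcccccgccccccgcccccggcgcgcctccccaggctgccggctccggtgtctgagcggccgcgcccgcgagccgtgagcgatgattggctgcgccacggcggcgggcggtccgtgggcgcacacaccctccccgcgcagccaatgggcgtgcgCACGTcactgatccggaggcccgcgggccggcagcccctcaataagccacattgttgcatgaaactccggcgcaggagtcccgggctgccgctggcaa
ADM and SLC2A1, with wider spread, had no match in this window, which says only that these letters are not in it.

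Other lists moved less. On the TMM scale 14 of 27 scores were highest in tumour 3, a count that fell to 10 under library totals and 8 on the TPM scale. The median gene of tumour 3 itself lay at 0.001 with TMM, -0.03 under library totals and -0.07 on the TPM scale. These are log2 differences from the mean of the 6 tumours over genes with at least 50 counts, and scores on each scale include them. Cholesterol synthesis was at 0.17 in tumour 3 relative to the mean of the 6, with -0.10 to -0.01 in the others, and endoplasmic reticulum chaperones at 0.14 against -0.07 to 0.01. Without tumour 3 the SDs fell from 0.09 to 0.04 and from 0.07 to 0.03. Both were also highest in tumour 3 on those scales, but on the TPM scale at only 0.08 and 0.07, with tumour 1 at 0.05 for chaperones. HSP90B1, the chaperone GRP94, had 2194 CPM in tumour 3 and 1488 to 1578 CPM in the others. PMVK and INSIG1, an enzyme and a regulator of sterol synthesis, had 29.4 and 54.8 CPM in tumour 3 against at most 18.2 and 40.9 CPM in the others.

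**Figure D4:**
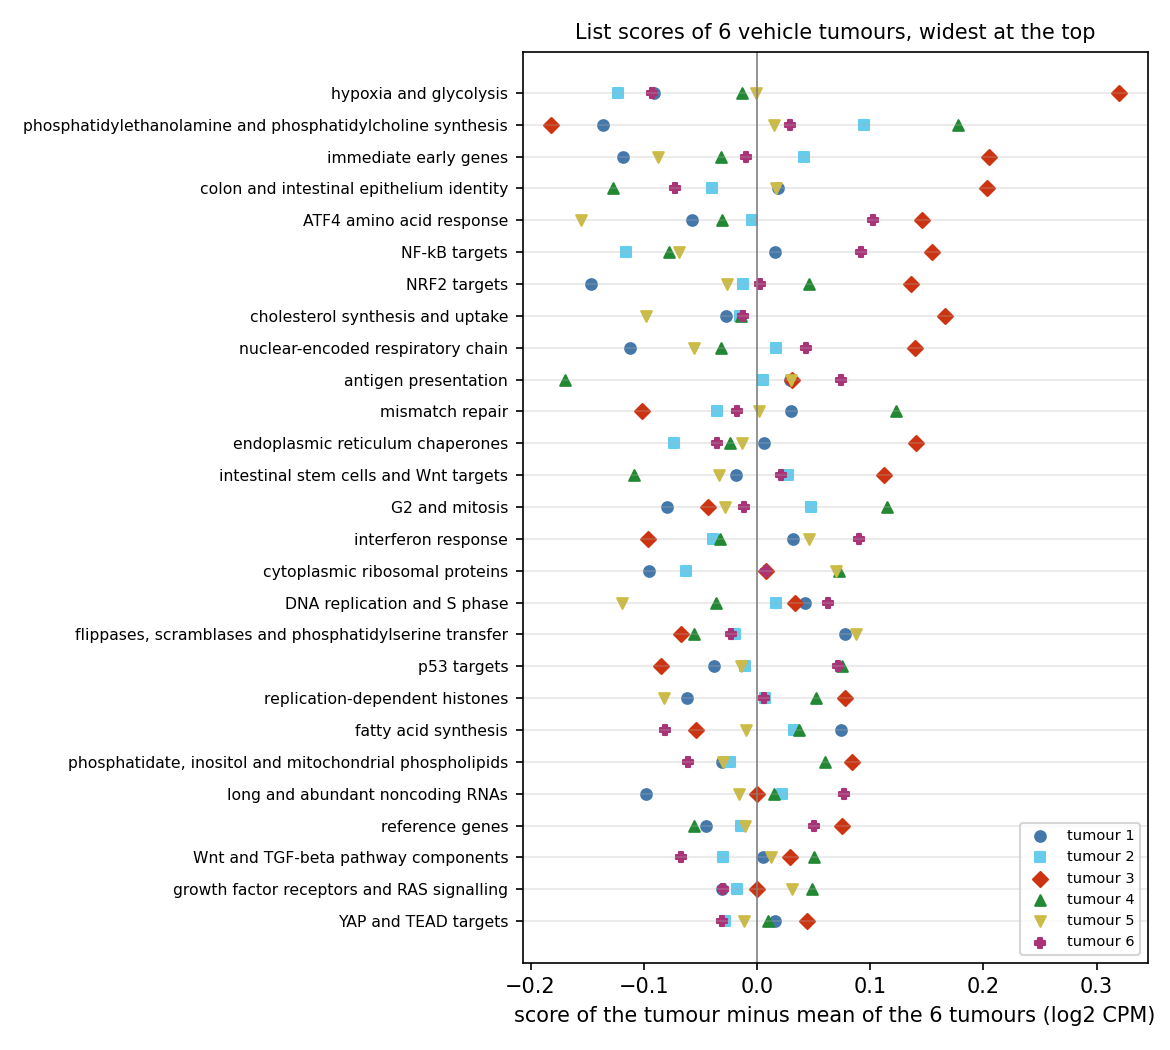
Score of each of 27 gene lists in each vehicle tumour minus the mean of the 6 tumours (log2 CPM), widest list at the top. Tumour 3 is at 0.32 for hypoxia and glycolysis, tumour 4 at -0.17 for antigen presentation, and YAP and TEAD targets at the bottom lie within 0.08 of each other.

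The second widest score was that of phosphatidylethanolamine and phosphatidylcholine synthesis, with an SD of 0.14 and of 0.12 without tumour 3. Here tumour 4 was highest at 0.18 and tumour 3 lowest at -0.18. CEPT1, which joins CDP-choline or CDP-ethanolamine to diacylglycerol, had 26.2 CPM in tumour 4 and 11.8 to 18.4 CPM in the others. ETNK1 had 57.1 CPM in tumour 3, 77.5 to 89.5 CPM in tumours 1, 2, 5 and 6 and 108 CPM in tumour 4. PEMT, the methyltransferase that turns phosphatidylethanolamine into phosphatidylcholine, had 8.1 and 9.6 CPM in tumours 1 and 3 and 15.0 to 18.2 CPM in the other 4. These enzymes thus did not share 1 order of tumours.

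Immediate early genes (SD 0.12) and colon identity (SD 0.11) were widest next, both with tumour 3 highest. Without that tumour both SDs were 0.06, and antigen presentation and the ATF4 response, each at 0.09, were wider. FOS, a subunit of the AP-1 factor, had 8.2, 14.3 and 22.6 CPM in the lowest, median and highest tumour, the highest being tumour 3 and the next 18.4 CPM. CLDN7 had 64.4 to 83.4 CPM in 5 tumours and 124 CPM in tumour 3, and KRT19 1218 to 1569 CPM against 2239 CPM. Antigen presentation went the other way in 1 tumour, with tumour 4 at -0.17 and the other 5 between 0.01 and 0.07. HLA-B and HLA-F were both lowest in tumour 4, at 321 and 52.8 CPM.

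The narrowest scores were those of YAP and TEAD targets (SD 0.03), growth factor signalling (SD 0.03), Wnt and TGF-beta components (SD 0.04) and reference genes (SD 0.05). The steadiest single genes included PCMT1, a protein repair methyltransferase, with 41.5 to 42.2 CPM, the initiation factor EIF5B with 306 to 317 CPM and talin, TLN1, with 437 to 455 CPM. The estimate of spread was 0 for each of these 3 genes. ACLY, which makes cytosolic acetyl-CoA, and ATP5F1A, an ATP synthase subunit, were also among the 10 steadiest genes.

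The most variable single genes fell into 2 kinds. Of the 50 with the widest spread, 38 had counts that were not whole numbers in at least 1 vehicle library (by more than 0.005). Over all 10512 genes, 81.0% had whole counts in every vehicle library. For the 38, the authors' counting had thus divided reads between overlapping or near-identical genes. Of the 30 widest, 25 had such divided counts and 12 were readthrough entries that join neighbouring genes. Among all 10512 genes 42 had readthrough names. The widest, TMEM256-PLSCR3, had 0 CPM in tumours 1, 2 and 5 and 13.6, 23.8 and 29.9 CPM in tumours 6, 3 and 4. SULT1A3 and SULT1A4, copies of 1 gene, had the same value in every tumour. The spread of such entries is uncertain as a measure of RNA, since a small change in the division of reads can move an entry to or from 0.

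Metallothioneins formed a coherent group among the divided genes. MT1E had 139 and 142 CPM in tumours 5 and 4, 219, 224 and 249 CPM in tumours 1, 6 and 2, and 552 CPM in tumour 3. MT2A had 262 and 275 CPM in tumours 5 and 4 and 774 CPM in tumour 3. Without tumour 3 the coefficients of MT1E and MT2A fell from 0.601 and 0.430 to 0.259 and 0.232. MT1X and MT1F were also highest in tumour 3, at 31.3 and 16.0 CPM against 11.4 to 19.2 and 6.86 to 9.92 CPM in the others. MT2A, MT1E, MT1X and MT1F were the only 4 metallothionein genes with a mean above 1 CPM, and they are highly similar in sequence, so reads may have passed between them. Metallothionein transcription is known to be induced through metal response elements, whose core is TGCACNC or TGCGCNC. The promoters of the 2 with a RefSeq entry are shown with these cores in capitals on either strand. MT2A held 8 matches and MT1X 4, with none overlapping. MT1H, at 0 CPM in all 6 tumours, held 8 as well, and 29.4% of all promoters held at least 1. The search was chosen after the values were seen.
MT2A, chr16:56608334-56608633, plus strand: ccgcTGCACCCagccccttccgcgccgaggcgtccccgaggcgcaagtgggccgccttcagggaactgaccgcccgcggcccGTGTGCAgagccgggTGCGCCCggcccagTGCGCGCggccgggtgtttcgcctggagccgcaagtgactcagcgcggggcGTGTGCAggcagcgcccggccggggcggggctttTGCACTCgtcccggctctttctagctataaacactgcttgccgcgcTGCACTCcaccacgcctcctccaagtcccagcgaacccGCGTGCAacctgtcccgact
MT1X, chr16:56682220-56682519, plus strand: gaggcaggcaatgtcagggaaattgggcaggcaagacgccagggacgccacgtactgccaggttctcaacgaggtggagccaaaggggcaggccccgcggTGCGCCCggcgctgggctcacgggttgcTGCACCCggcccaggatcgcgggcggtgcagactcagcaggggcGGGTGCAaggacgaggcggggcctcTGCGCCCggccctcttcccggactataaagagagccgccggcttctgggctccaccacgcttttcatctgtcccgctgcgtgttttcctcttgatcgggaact

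Among the 8518 genes with whole counts in all vehicle libraries, the widest were FAM241A and PTMS. FAM241A had 7.68 to 11.2 CPM in 5 tumours and 32.9 CPM in tumour 3, with a biological coefficient of variation of 0.765, which was 0 without tumour 3. PTMS, the nuclear protein parathymosin, had 297 to 352 CPM in 5 tumours and 808 CPM in tumour 3, 2.59 times the mean of the other 5, and its coefficient went from 0.516 to 0.0706 without that tumour. MUC12, a membrane mucin of the colon, differed in pattern, with 21.5 and 19.8 CPM in tumours 1 and 3 and 7.18 to 11.2 CPM in the other 4. EMC7, a membrane protein insertase subunit, had 37.9 CPM in tumour 3 against 11.4 to 17.3 CPM. NDUFA1, a subunit of respiratory complex I, had 52.9 CPM in tumour 3 and 17.3 to 34.0 CPM in the others. TESC, a calcium-binding protein, and FKBP2, a prolyl isomerase of the endoplasmic reticulum, had 72.0 and 70.3 CPM in tumour 3 against at most 35.2 and 35.7 CPM. Without tumour 3 the coefficients of EMC7, NDUFA1, TESC and FKBP2 went from 0.496, 0.487, 0.433 and 0.420 to 0.109, 0.291, 0.0620 and 0.130.

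Of the 50 widest genes with whole counts, 32 were highest in tumour 3, where 26.4% of all 8518 such genes were. For 15 of the 50, tumour 3 lay far above the rest by Dixon's gap. The 50 were picked for wide spread, which a single far tumour gives by itself. The share of all 8518 genes with tumour 3 far above is not given here. The median transcript length of the 50 was 1744 bases against 3233 over all such genes, and their median GC content 52.5% against 49.0%. Length and GC content thus moved with the list, and their part in it was not tested. A smaller number had tumour 3 as the lowest. SEC61A2, a translocon subunit, had 4.23 CPM there and 12.5 to 18.7 CPM elsewhere, and MANEA, a Golgi mannosidase, 6.11 CPM in tumour 3 but 17.1 and 18.1 CPM in tumours 4 and 5. TFPI, an inhibitor of coagulation, was highest in tumour 4 at 33.3 CPM against 13.6 to 20.1 CPM. Just inside the 50, CRY1 had a coefficient of 0.312, and the next gene outside had 0.311.

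**Figure D5:**
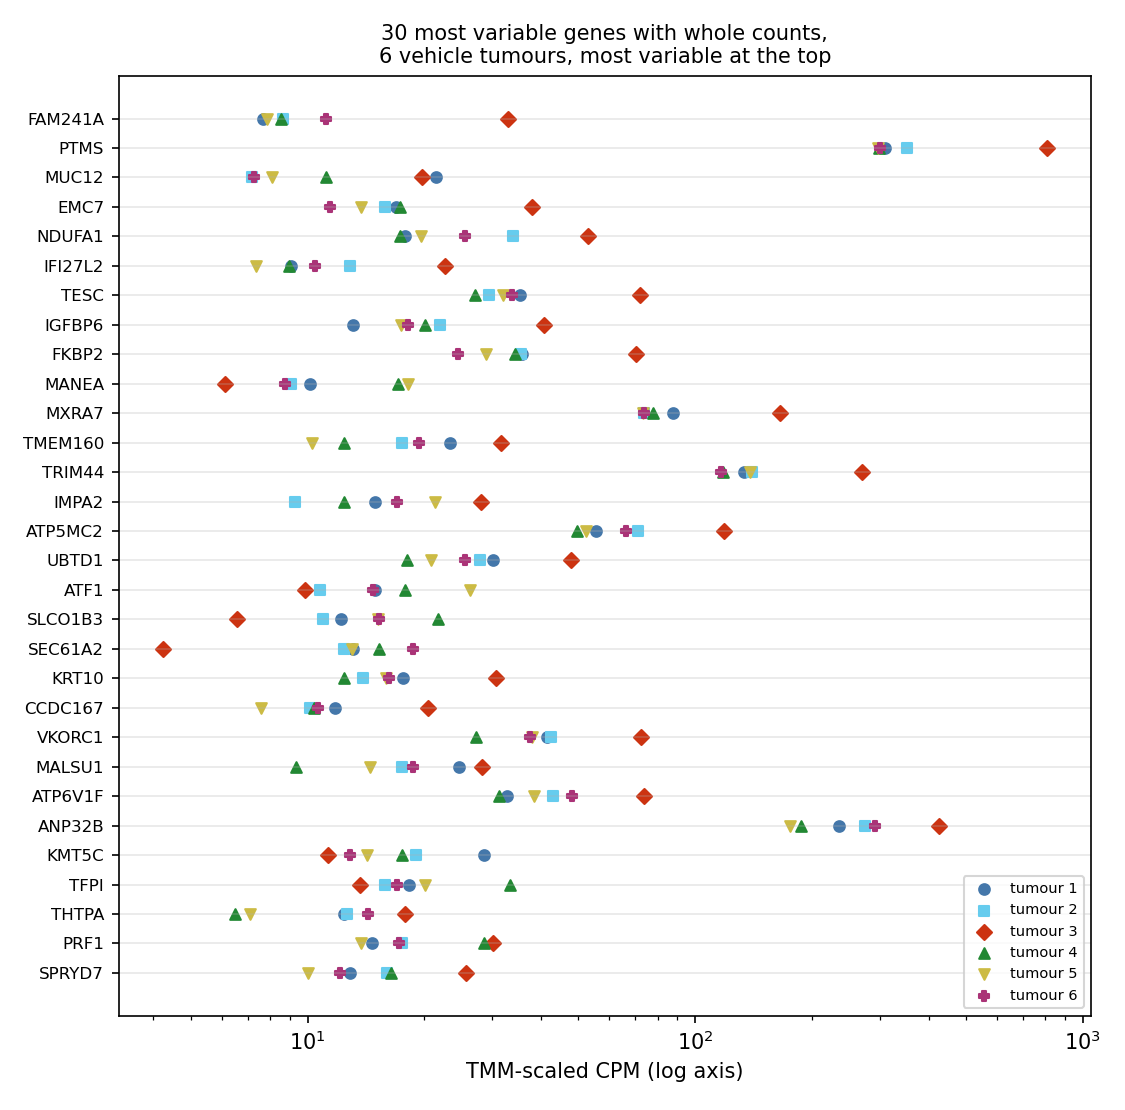
TMM-scaled CPM (log axis) of the 30 most variable genes with whole counts in the 6 vehicle tumours, most variable at the top. For FAM241A, PTMS, TESC and MXRA7 tumour 3 lies apart from 5 tumours that sit close together, while MUC12 has tumours 1 and 3 high.

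With tumour 3 left out, MUC12 was the widest gene with whole counts, with a coefficient of 0.530. SLC7A8 and NEK8 came next, from ranks 32 and 49 with all 6 tumours, and were named after their values were seen. SLC7A8, an amino acid transporter, had 20.3 CPM in tumour 5 and 9.26 to 12.9 CPM in tumours 1, 2, 4 and 6. NEK8, a ciliary kinase, had 16.2 and 17.9 CPM in tumours 6 and 2 and 8.34 to 10.4 CPM in tumours 5, 1 and 4.

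The dosed tumours, which played no part in the choice, give the same measure in other samples. Of the 50 widest genes with whole counts, 46 had a coefficient above the median of all such genes in the 30 mg/kg group, 39 in the 10 mg/kg group and 49 in the latter without its replicate 2. Their own medians were 0.281, 0.372 and 0.282 against 0.343 in vehicle tumours, and 0.216 in vehicle tumours without tumour 3. Genes that varied most among vehicle tumours thus tended to lie above the median coefficient among dosed tumours as well. The 50 were not matched with the other genes for depth, transcript length or GC content. The part of these in the higher coefficients was not tested. MUC12 had a coefficient of 1.05 at 30 mg/kg, and FAM241A one of 0.704.

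The vehicle tumours also serve as the shared control of both doses, so the counts that follow are not independent of each other. Of 25 cholesterol genes tested, 17 were higher at 10 mg/kg and 20 at 30 mg/kg by edgeR, where 0.419% and 0.568% of all genes were. Of 24 immediate early genes 5 and 4 were higher, and of 21 ATF4 response genes 3 and 5. These list counts are those of edgeR alone. By limma on log2(TPM + 1), 10 genes in all were higher at 10 mg/kg and 21 at 30 mg/kg. The 17 cholesterol genes at 10 mg/kg thus depend on the test used.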

How the data were processed

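RNA of 18 tumours was sequenced, and the 6 vehicle tumours are described. Per the labels' protocols, 5 ng of Maxwell-extracted RNA entered a strand-specific SMARTer library kit that keeps RNAs without poly(A) tails. The submitters' processing notes name STAR 2.4.2a, hg19 and mm10. Their roles and the sorting of human from mouse reads: not given in the sources used here. For each library, the authors deposited 1 table with 25343 human genes by Entrez ID. Per the file headers, each gives expected counts (estimated reads, not scaled), TPM and transcript lengths. Expected counts were rounded to whole numbers. Symbols came from a RefSeq table (GRCh38.p14), for 25220 genes by ID and 26 by accession, and 117 genes had none. Of 722 list entries 704 were found, and mitochondrially encoded genes are not analysed here.

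Library sizes were scaled by TMM over 18 libraries. The biological coefficient of variation is the square root of the variance of CPM less the mean counting variance, over the mean, for genes with a mean of at least 50 counts. On data simulated gene by gene it ranked most genes of wide spread first, but divided reads and a single far tumour were not simulated. Each dose was compared with vehicle by the robust quasi-likelihood test of edgeR 4.0.16 (R 4.3.3) on 14074 genes kept by filterByExpr, with all 3 groups in 1 fit and Benjamini-Hochberg adjusted p under 0.05 as threshold. This test was also checked on simulated data. Alternatives were DESeq2 1.42.0 and its size factors, library totals, no filter, limma 3.58.1 on log2(TPM + 1), a replicate block, other count minimums, TPM without small RNAs, other pseudocounts, and leaving out each library. Restriction to genes with whole counts was added after seeing the data.

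The genes named were PTDSS1 and PTDSS2, the most abundant genes and small RNAs, the highest and lowest members of each list, the highest member and members at 0 of lists of other cell types, the widest and steadiest genes, and the widest members of the widest lists. For brevity not every such gene is printed. The members and lists were chosen with earlier results of these data known.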

Additional observations from a re-analysis of the deposited data

Results flagged for a closer look

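A single tumour far from the other 5 was looked for by Dixon's gap, the distance of the highest or lowest value to its neighbour over the whole range at its 95% critical value. Chance alone gives such a tumour in about 5% of groups of 6, and the genes below were looked at because they vary most, so many are to be found among them. Of the 30 widest genes with whole counts, 13 had tumour 3 far above the rest. In TMM-scaled CPM of tumour 3, these were FAM241A at 32.9, PTMS at 808, EMC7 at 37.9, IFI27L2 at 22.6, TESC at 72.0, IGFBP6 at 40.7 and FKBP2 at 70.3. The others were MXRA7 at 165, TRIM44 at 269, ATP5MC2 at 119, KRT10 at 30.6, CCDC167 at 20.5 and VKORC1 at 72.7 CPM. Without tumour 3 the coefficients of IFI27L2, IGFBP6, MXRA7 and TRIM44 went from 0.448, 0.429, 0.392 and 0.378 to 0.149, 0.146, 0.0567 and 0.0763. Those of ATP5MC2, KRT10, CCDC167 and VKORC1 went from 0.370, 0.349, 0.349 and 0.348 to 0.147, 0.0583, 0.0266 and 0.142. Tumour 4 was far above the rest for TFPI, at 33.3 CPM.

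Of the 27 list scores, 4 had a far tumour. Tumour 3 was high for cholesterol synthesis and uptake (score 5.89 log2 CPM), hypoxia and glycolysis (7.32) and endoplasmic reticulum chaperones (7.30). Tumour 4 was low for antigen presentation (7.28). With library totals chaperones no longer had a far tumour (gap over range 0.49), and on the log2(TPM + 1) scale none of the 4 did (0.54, 0.55, 0.19 and 0.47 in the order given, all under the critical value). On that scale 2 other lists had one, stem cell and Wnt genes with tumour 4 low and p53 targets with tumour 3 low. There the median gene of tumour 3 lay at -0.07 relative to the mean of the 6 tumours. Transcript length and GC content moved with tumour 3 over all genes, and their part in these values was not tested.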

How the results depend on the processing

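The count of genes called at 10 mg/kg was 66 by edgeR. It was 32 without a filter, 159 by DESeq2 and 12 by limma on log2(TPM + 1), and 31 to 121 with 1 library left out. At 30 mg/kg the count of 87 became 57 without a filter, 179 by DESeq2 and 23 by limma, and 61 to 182 with 1 library left out. At both doses the highest of these, 121 and 182, came without replicate 2 of the 10 mg/kg group. A fit with the replicate number as a block gave 24 and 60 calls. Deviations of same-numbered tumours had correlations of both signs, from -0.37 to 0.37, and the main fit did not pair them. These values cannot tell whether the numbers mark a shared batch. Under every alternative run, 0 of the 50 most abundant genes were called.

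The choice of most variable genes depended on the settings. Of the 50, 32 were kept by the SD of log2(TPM + 1), 11 with a minimum of 20 counts and 7 with one of 200. Leaving out 1 vehicle tumour kept 25 to 44, the fewest without tumour 3. Restriction to whole counts kept 12, and 3 without tumour 3. Median biological variation was 0.0799 with a minimum of 200 counts, 0.0748 to 0.0955 with 1 tumour left out, and 0.0735 over whole counts without tumour 3. Of the list scores, 6 had an SD of at least 0.1, and 1 to 7 with 1 tumour left out, the fewest without tumour 3. Genes at or above 1 TPM numbered 15198 to 15291 with 1 tumour left out. The number of lists with a median of at least 1 TPM was 29 with any tumour left out. Of single values under an alternative, 71 gene spreads, 56 list medians and 61 score SDs moved by more than their spread, against 369, 311 and 182 that did not.

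At 4032417 to 4900612 counts in each of 6 tumours, genes under 50 counts were too shallow for an estimate of spread. Levels under 1 TPM rest on few reads.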
